A study of Rattus norvegicus with 13 samples.

Results

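MicroRNAs (miRNAs) are short RNAs that pair with messenger RNAs through their seed, bases 2 to 8, and lower the output of those messengers. The 6 miRNAs described here are those of skeletal and heart muscle, and were measured in rat fat. They were chosen by name, as the array rows named rno-miR-1, rno-miR-133a, rno-miR-133a*, rno-miR-133b, rno-miR-206 and rno-miR-499 (rno for rat, left out below), and make up 6 of the 677 rat miRNAs on the array. The 13 samples are fat from female Sprague Dawley rats aged 14 weeks. In 6 of them (HFD) the father had eaten a high-fat diet with 43% as fat, and in 7 (Control) the father had eaten standard chow with 9% as fat. All fathers were mated at 15 weeks of age with chow-fed females, and the daughters of both groups ate chow themselves. The labels name the tissue only as fat and give no depot, father or litter, so sisters could not be told from unrelated animals and p-values measure the spread between these 13 samples. The design asks whether miRNA levels in a daughter's fat differ with the father's diet.

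miR-1 and the miR-133 family are the abundant miRNAs of striated muscle, and they are made in pairs from shared transcripts: miR-1 with miR-133a in skeletal muscle and heart, miR-206 with miR-133b mainly in skeletal muscle. miR-1 promotes muscle differentiation and miR-133 is known for its part in the proliferation of muscle precursors. miR-206 is a skeletal muscle miRNA that is scarce in heart, known for its part in regeneration and at the neuromuscular junction, and in rodents it is higher in slow than in fast muscle. miR-499 lies inside a slow myosin gene, Myh7b, and is known from heart and slow muscle fibres. Mature fat cells are not known as a main source of any of them, although miR-133 is known to hold back brown fat formation in mice.

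The mature sequences are shown because they set which members a probe could confuse and which share targets. They are RefSeq's, on rat build GRCr8, and 6 of 6 members matched an entry. Capitals mark the seed.
miR-1: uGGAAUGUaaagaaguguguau
miR-206: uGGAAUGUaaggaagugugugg
miR-133a: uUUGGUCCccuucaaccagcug
miR-133b: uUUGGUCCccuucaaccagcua
miR-133a*: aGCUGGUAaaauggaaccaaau
miR-499: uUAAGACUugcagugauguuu
The 6 members thus hold 4 seeds. miR-1 and miR-206 have the same seed and differ at 3 positions, A11G, A21G and U22G, with miR-1's base first and positions counted from the 5′ end. miR-133a and miR-133b have the same seed and differ only at the last base, G22A, with miR-133a's base first. miR-133a* comes from the other arm of the miR-133a precursor and has a seed of its own. miR-1 lies at chr18:2160339-2160360 on the minus strand and miR-133a at chr18:2157886-2157907, both within the protein-coding gene Mib1. The start positions given for these 2 are 2.453 kb apart. miR-206 lies at chr9:30590747-30590768 and miR-133b at chr9:30594629-30594650 on the plus strand, within the non-coding gene LOC120094648, with their genes about 3.8 kb apart. miR-499 lies at chr3:164570616-164570636 on the plus strand within Myh7b.

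Each array was read in 1 colour, and the software gave each miRNA a total gene signal, an intensity that is not scaled between arrays. Across the 13 arrays 154 to 196 miRNAs were detected per array, and 0 spots were saturated. The miRNAs on the fat list used here, such as miR-193 and miR-365, were all detected, 8 of 8. They are not particular to fat: miR-143 is also on the smooth muscle list used below and miR-378 on the striated muscle list.

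The amount of these miRNAs differed strongly between animals of the same group. miR-1 had a total gene signal of 77.3 at the lowest, 132 at the median and 22744 at the highest of the 6 HFD arrays, against 50.9, 132 and 16053 on the 7 Control arrays. The highest values were on HFD 629 (22744), Control 662 (16053) and Control 664 (9720), and the next were on HFD 619 (924) and Control 658 (474). On the other 8 arrays, 4 of each group, miR-1 lay between 50.9 and 143. The 2 groups therefore overlapped over most of their range, and each held 1 or 2 arrays with very bright miR-1, 1 intermediate array and 4 dim ones.

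miR-133b, whose gene lies beside that of miR-206, took the same order at the top. Its total gene signal was 61.2 at the lowest, 104 at the median and 20529 at the highest on HFD arrays, against 28.0, 143 and 14306 on Control arrays. HFD 629, Control 662, Control 664, HFD 619 and Control 658 were the 5 brightest, in that order, for miR-1 and for miR-133b on the scaled log2 level used for the tests. On that level miR-1 and miR-133b each ranged over 7.98 to 7.99 log2 units.

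miR-499, the miRNA within Myh7b, was detected on all 13 arrays and moved far less. Its total gene signal was 80.8, 127 and 228 (lowest, median and highest) on HFD arrays, against 108, 111 and 246 on Control arrays. The 5 arrays brightest for miR-1 were also the 5 with the highest scaled level of miR-499, led by Control 662 and then HFD 629. The span of its total gene signal was 3.05-fold, against 447-fold for miR-1 and 734-fold for miR-133b.

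miR-206, the skeletal muscle miRNA with the seed of miR-1, was detected on 1 of 6 HFD arrays and 2 of 7 Control arrays. Its total gene signal was 538 on HFD 629, against 988 on Control 662 and 642 on Control 664. These are the 3 arrays brightest for miR-1, but in another order: HFD 629 was first for miR-1 and last of the 3 for miR-206. On HFD 619 the software listed miR-206 as detected at 44.0, although only 2 of its 20 spots were well above background, and on the remaining 9 arrays no spot was.

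miR-133a, which differs from miR-133b by the final base, was detected on 2 HFD arrays and 3 Control arrays. Its total gene signal was 1161 on HFD 629 and 30.3 on HFD 619, against 800 on Control 662, 474 on Control 664 and 38.5 on Control 658. These are again the 5 arrays brightest for miR-1, and in each group the order was that of miR-1. miR-133a*, the other arm of that precursor, was detected only on the 3 brightest arrays, at 519 on HFD 629, against 355 on Control 662 and 199 on Control 664.

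**Figure D1:**
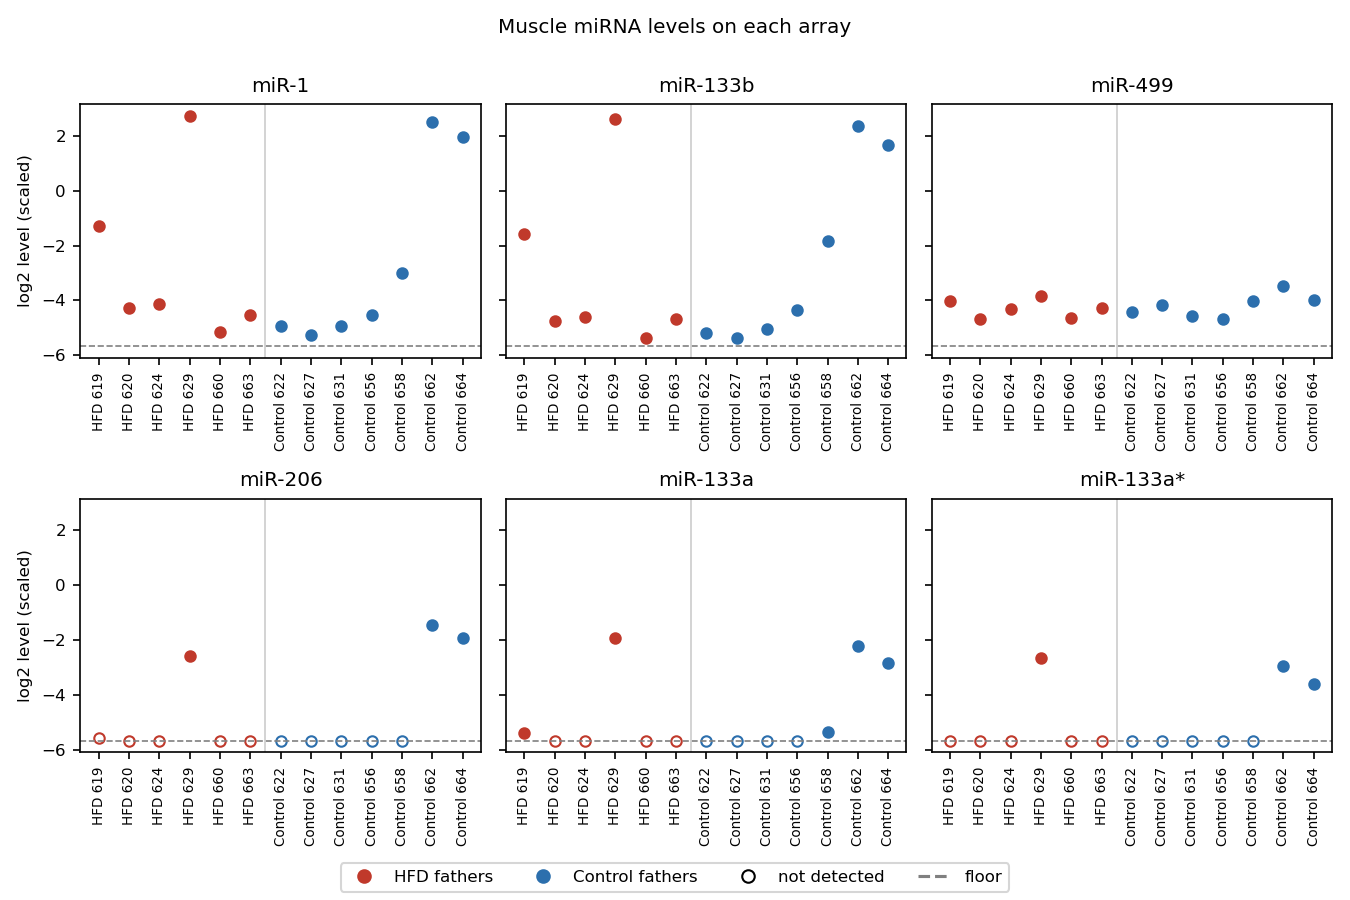
Log2 level of each muscle miRNA (scaled to the array's 75th percentile) on each of 13 arrays, HFD left of Control; open points were not detected and the dashed line is the floor at -5.67. HFD 629, Control 662 and Control 664 stand high in miR-1 and miR-133b, and miR-499 stays between -4.68 and -3.49 on all arrays.

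Added together, the 6 members made up 12.2% of the summed total gene signal of all rat miRNAs on HFD 629 and 0.839% on HFD 619, against 10.9% on Control 662, 7.16% on Control 664 and 0.488% on Control 658. On the other 8 arrays the share was 0.0907% to 0.146% in HFD and 0.0936% to 0.135% in Control. miR-1 and miR-133b carried nearly all of it on the bright arrays. A share of signal is not a share of molecules, because probes differ in brightness. In these bulk samples, more muscle cells and more of these RNAs per cell cannot be told apart.

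**Figure D2:**
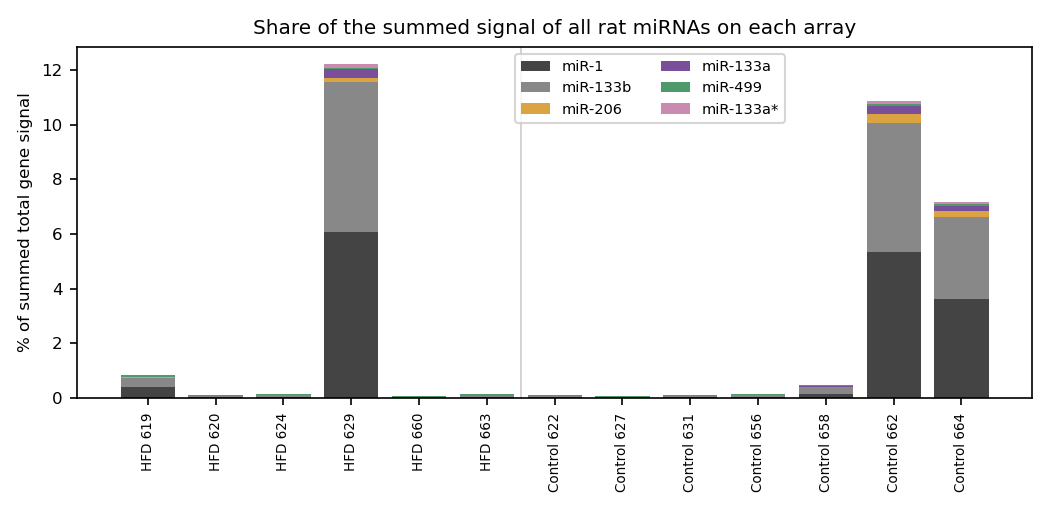
Share of the summed total gene signal of all rat miRNAs (in %) taken by each muscle miRNA on each array, as stacked bars, HFD left of Control. HFD 629 reaches 12.2%, Control 662 10.9% and Control 664 7.16%, and no other array exceeds 0.839%.

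The ratio of 2 members on the same array cancels a common scaling factor of that array, except where a probe is at the floor. Its size cannot be read, because 2 probes of different miRNAs are not equally bright, but its change from array to array can. miR-1, miR-133a, miR-133a* and miR-133b kept nearly fixed ratios to each other on the 3 bright arrays. The log2 ratio of miR-133a* over miR-133a ranged over only 0.063 on these 3 arrays, that of miR-133a over miR-133b over 0.078, and that of miR-133b over miR-1 over 0.139. miR-133b on HFD 629 stood to miR-1 as on Control 662, with a log2 shift of 0.0025, and close to Control 664, with a shift of 0.14.

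miR-206 did not keep its ratio. The log2 ratio of miR-206 over miR-1 was -5.34 on HFD 629, against -3.96 on Control 662 and -3.86 on Control 664. Relative to miR-1, miR-206 on HFD 629 was thus 0.385-fold of its value on Control 662 and 0.360-fold of that on Control 664. Each miRNA has 2 probes, and over the 4 ways of pairing them the log2 shift lay between -1.42 and -1.34 against Control 662 and between -1.50 and -1.44 against Control 664. The 2 Control arrays differed from each other by -0.096.

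Against miR-133b the picture was the same, although miR-206 and miR-133b lie beside each other on chromosome 9. The log2 ratio of miR-206 over miR-133b was -5.21 on HFD 629, against -3.83 on Control 662 and -3.59 on Control 664. The miR-133b signal therefore moved with miR-1 and miR-133a across these arrays rather than with its neighbour miR-206. Because miR-133a and miR-133b differ by 1 base, how far the probes of each also bind the other was not tested, and probe sequences were not used here. miR-206 was highest on Control 662 and miR-1 on HFD 629, so the miR-206 signal was not a fixed fraction of the miR-1 signal.

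miR-499 was also read against miR-1. Its log2 ratio over miR-1 was -6.59 on HFD 629, against -5.98 on Control 662 and -5.94 on Control 664, a shift of -0.61 and -0.65. Over the probe pairings these shifts ran from -0.64 to -0.59 and from -0.69 to -0.61. miR-499 was also present where miR-1 was dim, with a total gene signal of 80.8 to 138 on those 8 arrays, so its ratio falls with a higher miR-1 alone. After their median of 110 was taken off, miR-499 kept 118 on HFD 629, against 136 on Control 662 and 44.8 on Control 664. Its log2 ratio over miR-1 was then -7.59 on HFD 629, against -6.88 on Control 662 and -7.76 on Control 664. The order against Control 664 thus turned on this unscaled signal. The arrays differed in brightness, with a 75th percentile signal of 2540 on HFD 629, 2136 on Control 662 and 1923 on Control 664. Whether the order also turns after scaling was not tested, so no miR-499 shift is set beside that of miR-206. These are 1 HFD array and 2 Control arrays, so neither the miR-206 nor the miR-499 comparison has a test, and they say nothing about the fathers' diets.

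Beyond these 3 arrays the miR-206 ratio has bounds only. With the total gene signal, the log2 ratio of miR-206 over miR-1 on HFD 619 was -4.39, between the -5.40 of HFD 629 and the -4.02 of Control 662 on that scale. By the stricter detection rule, it was at most -4.20 on HFD 619 and at most -2.68 on Control 658. On the other 8 arrays miR-1 itself was too dim for the bound to bear on the values above.

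**Figure D3:**
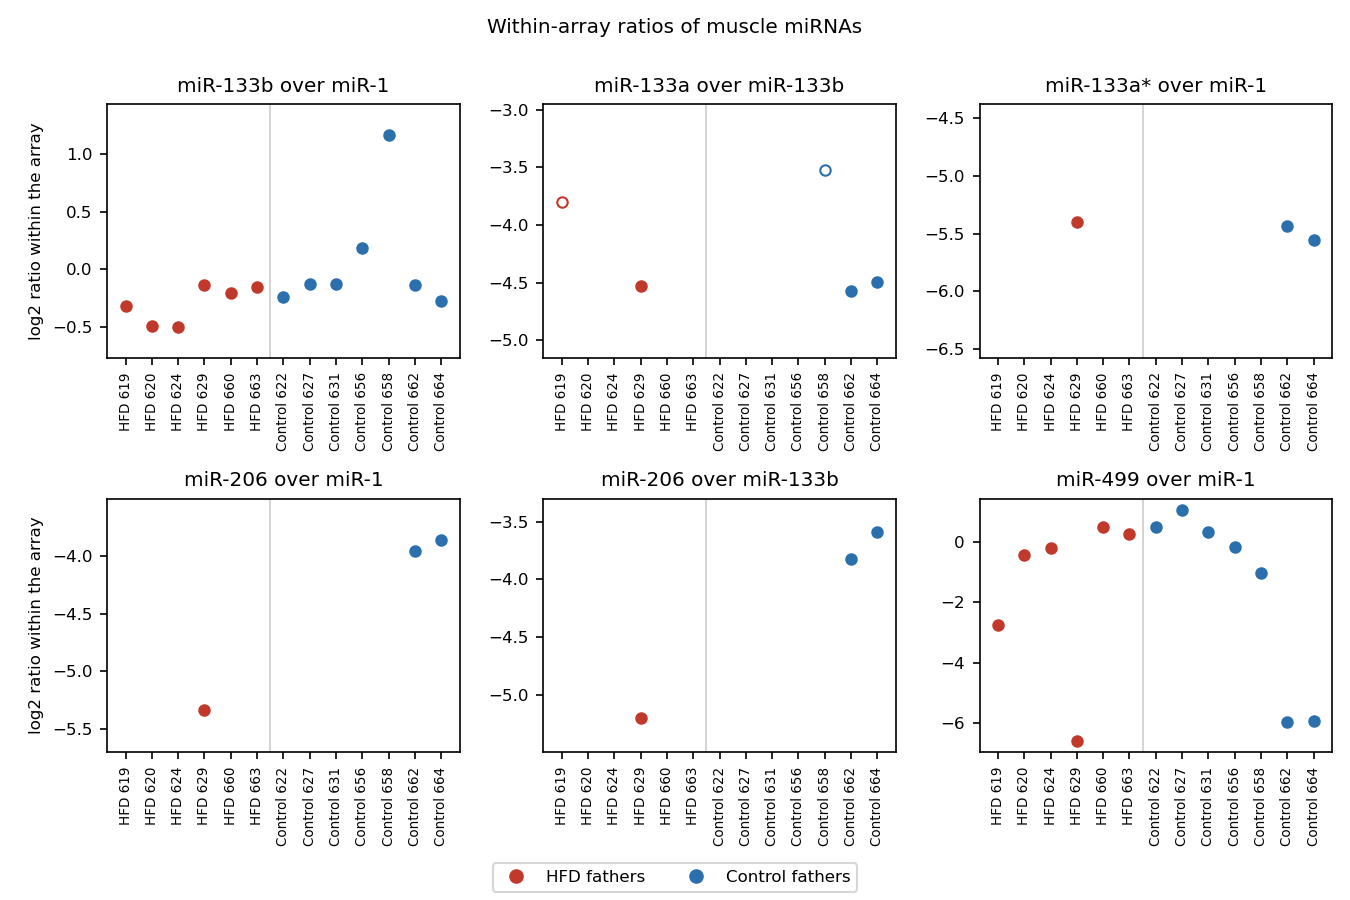
Within-array log2 ratio of 2 muscle miRNAs on each array where both were detected, HFD left of Control; open points in the panel of miR-133a over miR-133b are arrays where 1 miR-133a probe was at the floor. miR-133b over miR-1 lies between -0.50 and 0.18 except on Control 658 (1.17), and miR-206 over miR-1 is lower on HFD 629 (-5.34) than on Control 662 (-3.96) and Control 664 (-3.86).

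For the type of muscle, the members that separate heart from skeletal muscle were read on the 3 bright arrays. miR-206 was detected on all 3. miR-208, which lies within a heart myosin gene and is known from heart, was not detected on any of the 13 arrays, and neither were miR-208*, miR-208b-3p and miR-208b-5p, these 3 being named after their values were seen. On these arrays, then, the signal of the miRNA known from skeletal muscle and scarce in heart was detected and that of miR-208 was not. These are also the 3 arrays brightest for miR-1, from which miR-206 differs at 3 positions. How far the miR-206 probes also bind miR-1 was not tested. The list gives no marker of single fibre types other than miR-206 and miR-499 themselves, and messenger RNAs were not analysed here. The miR-1*, miR-133b*, miR-206* and miR-499* arms were not detected on any array.

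Control 658 stood apart within the miR-1 to miR-133b pair. Its log2 ratio of miR-133b over miR-1 was 1.17, while the 6 HFD arrays lay between -0.50 and -0.13 and the other 6 Control arrays between -0.27 and 0.18. The 2 miR-1 probes disagreed on this array: the first gave a signal of 96.8 and the second 662, a log2 gap of 2.77. On the other 11 arrays where both probes were detected the gap was 0.91 to 1.31. All 10 spots of each probe were well above background on Control 658. The 2 miR-133b probes, at 435 and 745, had a gap of 0.78, within the 0.77 to 1.05 of the 10 arrays where both were detected. With the second miR-1 probe alone the ratio on Control 658 was -0.22, against -0.73 to -0.47 on the other Control arrays, and with the first alone it was 2.55, against 0.18 to 0.83.

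Other marker lists also stood apart on Control 658. The summed total gene signal of the smooth muscle list was 38578 there and that of the fat list 47747, the highest of the 13 arrays in each case; miR-143 is on both lists. Their part in the probe gap was not tested.

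**Figure D4:**
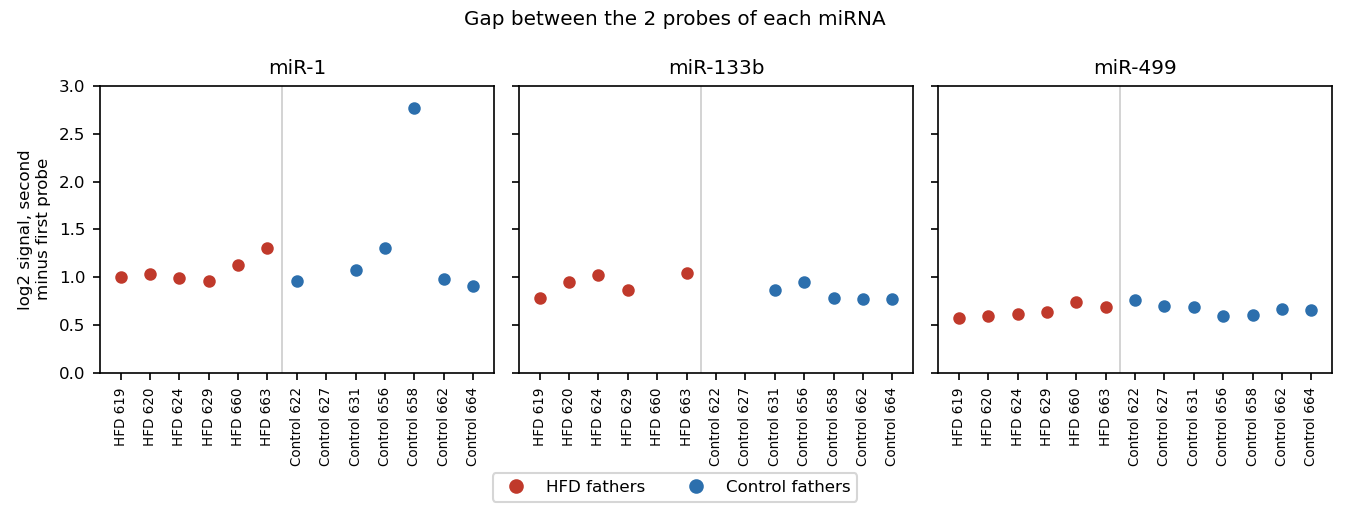
Log2 signal of the second minus the first probe of the 3 members detected on all arrays, for each array where both were detected, HFD left of Control. The gap of miR-1 is 2.77 on Control 658 and 0.91 to 1.31 on the 11 other arrays, while the gaps of miR-133b and miR-499 stay within 0.77 to 1.05 and 0.58 to 0.76.

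No member differed between HFD and Control daughters by the test. miR-1 had a mean log2 level of -2.77 ± 3.02 in HFD and -2.60 ± 3.37 in Control (SD, n = 6 and 7), a difference of -0.18 ± 1.67 (SE) with a 95% interval of -3.78 to 3.43 (limma, adjusted p = 0.998). miR-133b had -3.07 ± 3.09 in HFD and -2.53 ± 3.34 in Control, a difference of -0.54 ± 1.67 (SE, interval -4.16 to 3.08, adjusted p = 0.983 in limma). miR-499 had -4.30 ± 0.33 in HFD and -4.19 ± 0.41 in Control, a difference of -0.10 ± 0.197 (SE, interval -0.53 to 0.32, adjusted p = 0.983 in limma). Two-sided exact permutation tests over the 1716 splits of the arrays gave p of 0.934 for miR-1, 0.790 for miR-133b and 0.639 for miR-499.

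Of the 176 miRNAs detected on at least 6 arrays, 0 passed at an adjusted p below 0.05 in limma (0%), and 2 had an unadjusted p below 0.05 (1.14%), miR-214 and miR-193*, the second named after its values were seen. The members miR-1 and miR-133b had the widest errors: they were the only 2 of the 176 with an SE of at least 1, where the median SE was 0.0846. The intervals of these 2 members leave room for differences of over 3 log2 units either way, whereas that of miR-499 does not reach 1.

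The 3 other members fell below the filter of 6 arrays and were read from the fit over all 677 miRNAs, where 0 passed (0%). There miR-206 differed by -0.61 ± 0.92 (SE), miR-133a by -0.27 ± 0.84 (SE) and miR-133a* by -0.18 ± 0.67 (SE), with adjusted p of 0.60, 0.806 and 0.837 in limma. Most arrays sat at the floor for them, so these values rest on the few arrays where they were detected.

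The arrays came on 2 slides, and the direction of all 3 tested members turned between them. On slide 1, which held HFD 629, miR-1 differed by 2.14, miR-133b by 1.97 and miR-499 by 0.20, HFD minus Control. On slide 2, which held Control 662 and Control 664, they differed by -3.26, -3.92 and -0.52. The difference between the slides did not pass in limma's interaction test, with adjusted p of 0.339 for miR-1 and 0.255 for miR-133b and miR-499, in a test that called 1 of 176 miRNAs (0.568%), miR-451 of red blood cells, which was named by its list. Without Control 662, Control 664 and HFD 629 the differences were 0.65 for miR-1, 0.14 for miR-133b and -0.011 for miR-499, with adjusted p of 0.721, 0.966 and 0.984 in limma.

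**Figure D5:**
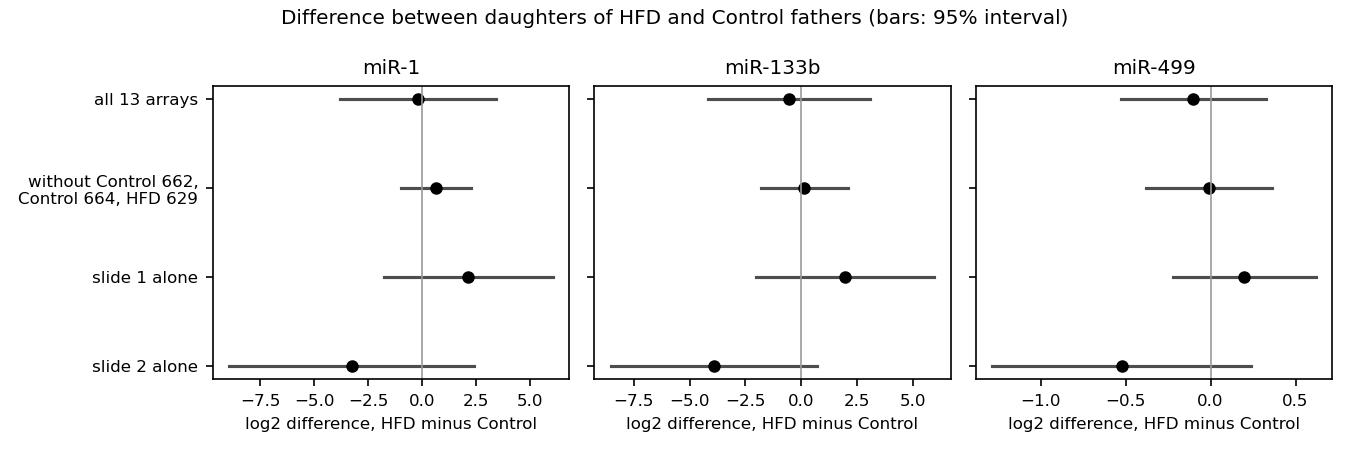
Log2 difference, HFD minus Control (points), of the 3 tested members, with its 95% interval (bars), over all 13 arrays, without the 3 arrays of highest miR-1, and on each slide alone; the horizontal scale differs between panels. All intervals hold 0, and the differences are positive on slide 1 and negative on slide 2.

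Ratios within arrays were also compared between HFD and Control for the 3 members detected on all arrays. miR-133b over miR-1 averaged -0.30 ± 0.16 in HFD and 0.06 ± 0.51 in Control (log2, SD, n = 6 and 7), a difference of -0.36 with an exact permutation p of 0.0734 (two-sided) and 0.220 after adjustment over the 3 ratios tested. The result depends on the miR-1 probe, on Control 658 and on probes at the floor: the first miR-133b probe was set to the floor on HFD 660, Control 622 and Control 627, and the first miR-1 probe on HFD 660 and Control 627. On Control 627 the ratio was -0.13 on this scale and -0.86 by total gene signal. With the second miR-1 probe alone the difference was -0.26, with an exact permutation p of 0.0157 and 0.0472 after adjustment. With the first alone it was -0.47, with an exact permutation p of 0.172. With the second probe of each miRNA, none of them at the floor, it was -0.22, with an exact permutation p of 0.0233 and 0.0699 after adjustment. On the 10 arrays with no probe at the floor it was -0.48, with an exact permutation p of 0.0476 and 0.143 after adjustment. These 4 settings were chosen after the probe gap on Control 658 or the probes at the floor had been seen. Without Control 658 the difference was -0.18, with an exact permutation p of 0.0931 and 0.279 after adjustment. Without Control 662, Control 664 and HFD 629 it was -0.50, with an exact permutation p of 0.0397 and 0.119 after adjustment. With the software's total gene signal the difference was -0.19, with an exact permutation p of 0.364. miR-499 over miR-1 differed by 0.07 and miR-499 over miR-133b by 0.44, with exact permutation p of 0.976 and 0.821.

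The other miRNAs of striated muscle were read from a list. Of 14 on the list 10 were on the array and 5 were tested; 4 of the 5 had higher and 1 a lower mean level in HFD, with 0 called and a median log2 difference of 0.11, where all 176 tested had 91 higher, 85 lower and a median of 0.0028. The 4 higher are miR-378 at 0.16 with its other arm miR-378* at 0.14, and miR-22 at 0.09 with its other arm miR-22* at 0.11. The lower one is miR-30c at -0.0013. All 5 are also known from tissues other than muscle. On the 3 bright arrays miR-22, miR-22* and miR-378* lay inside the range of the other 10 arrays. miR-30c was 0.19 on HFD 629, above the 0.16 that was highest among those 10, and miR-378 was 0.054 on Control 662, above their 0.024.

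Among regulators of muscle differentiation, 18 of 22 were tested, with 4 higher, 14 lower, 0 called and a median of -0.047. The largest named differences there were miR-214 at -0.37 ± 0.12 (SE) and miR-221 at -0.52 ± 0.27 (SE), each with an adjusted p of 0.965 in limma. The SD of miR-221 was 0.70 in Control, against 0.125 in HFD. The smooth muscle list had 5 of 6 tested, 0 higher, 5 lower and 0 called, with a median of -0.20, miR-100 at -0.10 and miR-143* at -0.20. miR-143* lay at the floor on 8 of the 13 arrays, and the summed signal of this list was highest on Control 658 (38578). These lists were chosen with earlier results of the same data known, and their counts are descriptions.

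Markers of other cell types were read beside the bright arrays. Their sums are of unscaled signal. HFD 629 was the array with the highest 75th percentile signal, 2540, against 2136 on Control 662 and 1923 on Control 664, so its sums carry this brightness. HFD 629 held the highest summed total gene signal of the red blood cell list, 22830, against 13018 on Control 662 and 13558 on Control 664. The ranges were 6697 to 22830 in HFD and 3337 to 13558 in Control. On the scaled level miR-451 was 2.60 on HFD 629, against 2.04 on Control 662, 2.30 on Control 664 and at most 2.48 elsewhere. miR-144* was -4.45 on HFD 629, below the highest value elsewhere, -4.18. HFD 629 also held the highest sum of the nerve and glia list, 4588, against 875 on Control 662 and 409 on Control 664. There the ranges were 111 to 4588 in HFD and 336 to 3514 in Control. miR-338, of that list, had a log2 level of 0.26 on HFD 629, against -2.003 on Control 662 and -2.99 on Control 664, while miR-124, which defines neurons, was not detected on any array. The part of blood, white cells or nerve in the lower miR-206 ratio of HFD 629 was not tested. The endothelial list had sums of 7529 to 10339 in HFD and 6426 to 10661 in Control, with 10053 on HFD 629, against 8943 on Control 662 and 7229 on Control 664. On the scaled level miR-126 of that list was 1.37 on HFD 629, against 1.45 on Control 662 and 1.33 on Control 664. Likewise miR-126* was -1.21 on HFD 629, against -1.05 on Control 662 and -1.33 on Control 664. The white blood cell list ran from 4035 to 7233 in HFD and from 4140 to 8118 in Control. Its highest sum in each group was on a bright array, 7233 on HFD 629, against 8118 on Control 664, with 6082 on Control 662. On the scaled level miR-223 was -1.02, -0.51 and -1.08 on these 3 arrays in that order, against -1.39 to -0.66 on the other 10 arrays. miR-150 was -1.20, -1.09 and -1.27, all inside the -1.38 to -0.90 of the other 10. Liver miR-122 had a log2 level of -5.47 on HFD 629, -3.90 on Control 662 and -4.86 on Control 664. In the epithelial list, 3 of 7 members, miR-200c, miR-141 and miR-429, were not detected on any array. The other 4 were detected on at least 1 array, and miR-203 and miR-205 on all 13. The sums of this list were 605 to 780 in HFD and 598 to 798 in Control. They were 709 on HFD 629, 728 on Control 662 and 798 on Control 664.

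Across the 13 arrays, the miRNAs whose levels ran most like the mean of miR-1 and miR-133b were miR-30e* (Spearman rho 0.81), miR-29a* (0.77), miR-374 (0.73), miR-125a-3p (0.73) and miR-29c* (0.71), out of 173 that are not members, whose median was 0.038. Their levels moved over 0.66 log2 units at most, against 7.99 for miR-1. All but miR-30e* were dim, between the floor of -5.67 and -4.89, and miR-125a-3p was at the floor on 2 arrays. On the 3 bright arrays miR-29a* lay inside its range on the other 10. miR-499 itself had a rho of 0.68, and 0.31 without Control 662, Control 664 and HFD 629. The least alike were miR-328a (-0.78, at the floor on 7 arrays), miR-150 (-0.68) and miR-335 (-0.62). These are descriptions over arrays of which 3 stand far from the rest, and all values of an array share its scaling.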

How the data were processed

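Per the labels, total RNA was labelled with Cy3 and hybridised to 1-colour arrays. Per the file headers, the authors scanned them and read them on a build rn4 grid with Agilent Feature Extraction 10.7.3.1. Spot intensity is background-subtracted and not scaled between arrays, per the file headers and values. The deposited value table holds log2 of the total gene signal, blank where not detected and not centred, with column medians from 6.95 to 7.77; of its 2569 values, 26 differed from the scanner files by over 2e-04. RMA and Partek are named in the submitters' processing notes without a role. Other deposited flag columns, such as well above background, are yes or no codes rather than a score.

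For each probe, the mean of its unflagged spots was scaled to the 75th percentile of the array, taken over the 260 probes that every array detected, with a floor of 0.0197 (log2 -5.67). Log2 values were then averaged over the probes of a miRNA. Detection needed 1 probe with 0.5 or more of its spots well above background, and testing needed detection on 6 arrays or more (176 of 677 miRNAs). The test was limma 3.58.1 (R 4.3.3, Benjamini-Hochberg, threshold 0.05), and 3 within-array ratios were compared by exact permutation over 1716 splits, adjusted over the 3. The fit was tested on simulated data. Array number limits the precision.

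The members and lists were chosen with earlier results of these data known. Named were all members, the striated muscle list, up to 2 of each other list by lowest p, and the 5 most and 3 least alike in Spearman rho. Alternatives were other scalings, background (normexp on the median spot signal; a mean signal was not used here), summaries, filters, floors, blocks and arrays left out. Sequences and gene positions came from RefSeq's tables on GRCr8.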

Additional observations from a re-analysis of the deposited data

Results flagged for a closer look

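The log2 ratio of miR-133b over miR-1 on Control 658 was 1.17, and its gap to the nearest of the other 6 Control arrays was a larger part of the group's range than Dixon's 95% value for 7 samples allows. Of 12 groups of values examined in this way, 1 stood out, where chance gives about 1 in 20. The size of the value rests on the first of the 2 miR-1 probes, but Control 658 stayed highest in its group without it. With the second miR-1 probe alone the ratio was -0.22 there, against -0.73 to -0.47 on the other Control arrays. With the second probe of each miRNA it was 0.17, against -0.34 to 0.0039.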

How the results depend on the processing

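No miRNA was called under 15 other settings and 13 fits without 1 array each. The signs of member differences were not stable. miR-1 turned to 0.11 with the slide as a block, 0.070 with the animal number range as a block, 2.14 within slide 1 and 0.65 without the 3 arrays of highest miR-1. Within slide 1, miR-133b turned to 1.97, miR-499 to 0.20, miR-133a to 0.94, miR-133a* to 0.75 and miR-206 to 0.77. Without the 3 arrays, miR-133b turned to 0.14 and miR-206 to 0.017, and miR-133a* had no value because every array was at the floor. With a floor 4 times higher miR-133a* turned to 0.046. miR-499 over miR-1 turned to -0.18 with the slide block, -0.15 with the number range block, -1.94 within slide 1 and -0.66 without the 3 arrays. miR-499 over miR-133b turned to -1.77 within slide 1 and -0.15 without the 3 arrays. miR-133b over miR-1 kept its sign in all alternatives and passed only with the second miR-1 probe alone (-0.26), 1 of 4 settings added after the data were seen.

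Leaving out 1 array at a time, the difference ran from -1.28 to 0.67 for miR-1, -1.68 to 0.28 for miR-133b, -0.19 to 0.015 for miR-499, -0.89 to 0.14 for miR-133a, -0.68 to 0.16 for miR-133a* and -1.12 to -0.098 for miR-206. The ratios ran from -0.42 to -0.18 (miR-133b over miR-1), -0.66 to 1.09 (miR-499 over miR-1) and -0.26 to 1.48 (miR-499 over miR-133b). The value nearest 0 for miR-133b over miR-1 came without Control 658. The number of miRNAs called stayed at 0. No paired analysis was possible because no animal number occurs in both groups. miR-206, miR-133a and miR-133a* lay at the floor on most arrays, which limits their values to the bright ones.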
